A study of Arabidopsis thaliana with 5 samples.

Results

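WRKY transcription factors are plant proteins that bind W-box elements in promoters through a DNA-binding domain closed by a zinc finger. Most group I proteins carry a pair of such domains. Group II proteins carry a single one with the same type of finger, and group III proteins carry a single one with a different finger. Many of the genes are induced by pathogens, wounding or salicylic acid, and others act in senescence, phosphate starvation, seed and trichome development. Their proteins are switched on by MAP kinases, pair with proteins of the VQ motif family, and often act on the promoters of other WRKY genes.

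The genes described here were 59 given loci out of 72 named as WRKY genes in RefSeq's table for TAIR10.1. They were found on the array through the transcript accession of each probe. By the usual classification, 11 belong to group I, 37 to group II (subgroups IIa to IIe) and 11 to group III. WRKY45, which some lists place in group I, has a single domain and was counted in IIc. Probes matched 57 of the 59; WRKY4 and WRKY61 had none under the accessions used here. The probes of WRKY10 (MINI3, a regulator of endosperm growth) and WRKY64 were not well above background on any array, so no change is given for them. The other 55 were tested among 26658 genes and unnamed transcripts, and 51 of them were well above background on all 5 arrays.

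RNA came from whole 12-day-old seedlings of wild type (2 arrays) and of the mutant Atino80-5 (3 arrays), grown on MS medium without treatment. INO80 is the motor subunit of a complex that moves and edits nucleosomes, and the comparison asked which transcripts differ in the mutant. The labels name 1 mutant line, give no complemented line, and leave unsaid whether each array had its own batch of seedlings, so the p-values rest on array-to-array spread that may be only technical. Values below are processed spot intensities scaled to a common 75th percentile (scaled signal), changes are log2 differences, mutant less wild type, with limma's moderated standard error (SE; 2 and 3 arrays), and a gene is called when its Benjamini-Hochberg adjusted p over all genes is under 0.05. Scaled signals are compared between arrays for 1 probe, never between probes.

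Across genes, correlations were 0.9951 to 0.9963 within and 0.9799 to 0.9817 between genotypes. Between 77.3% and 81.6% of probes were well above background per array. The probe that represents INO80 read 9623 and 9472 in wild type and 63.6, 54.3 and 59.8 in Atino80-5, which separates the labelled genotypes. Its other probe read 135 and 126 in wild type and 516, 478 and 466 in the mutant, the opposite direction, and the place of the probes along the gene was not used here. Mutant array 3 was alone on its slide, and the other 4 arrays shared one. All 8 leaf mesophyll markers were well above background on every array, and 11 of 11 root markers could be tested.

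Higher calls outnumbered lower calls among the WRKY genes. Of 55, 29 were called higher, 11 lower and 15 were not called, so that 72.7% were called, against 57.2% of all genes tested. Higher calls made up 52.7% of the WRKY genes and 30.5% of all genes, and lower calls 20.0% and 26.7%. The median log2 change was 0.21 for the WRKY genes and 0.00 for all genes, and 0.13 and -0.01 with normexp background correction, run with an offset of 50. At least 2-fold changes were found for 6 WRKY genes that were higher (WRKY46, WRKY38, WRKY70, WRKY62, WRKY51 and WRKY18) and 2 that were lower (WRKY60 and WRKY26), together 14.5% against 7.19% of all genes (4.56% higher and 2.63% lower). Over all genes 1215 were at least 2-fold higher and 701 lower. With normexp these counts fell to 530 and 424, and 3 WRKY genes were higher (WRKY46, WRKY70 and WRKY18) and 2 lower. Scaling arrays by their medians gave 6 WRKY genes higher and 4 lower, and 1080 and 777 over all genes. Of the 24920 genes well above background on all arrays, 945 were at least 2-fold higher and 530 lower. This filter leaves out WRKY62, and 5 WRKY genes were then higher and 2 lower. Wild type and mutant arrays were fully separate for 45 of the 55, against 74.7% of all genes. The WRKY loci were chosen with earlier results of these data known. These shares describe the chosen genes only, with no test of the family as a set. In that scaling by the median, 27 WRKY genes were higher and 13 lower, and higher calls made up 42.8% of the calls over all genes in place of 53.3%.

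**Figure D1:**
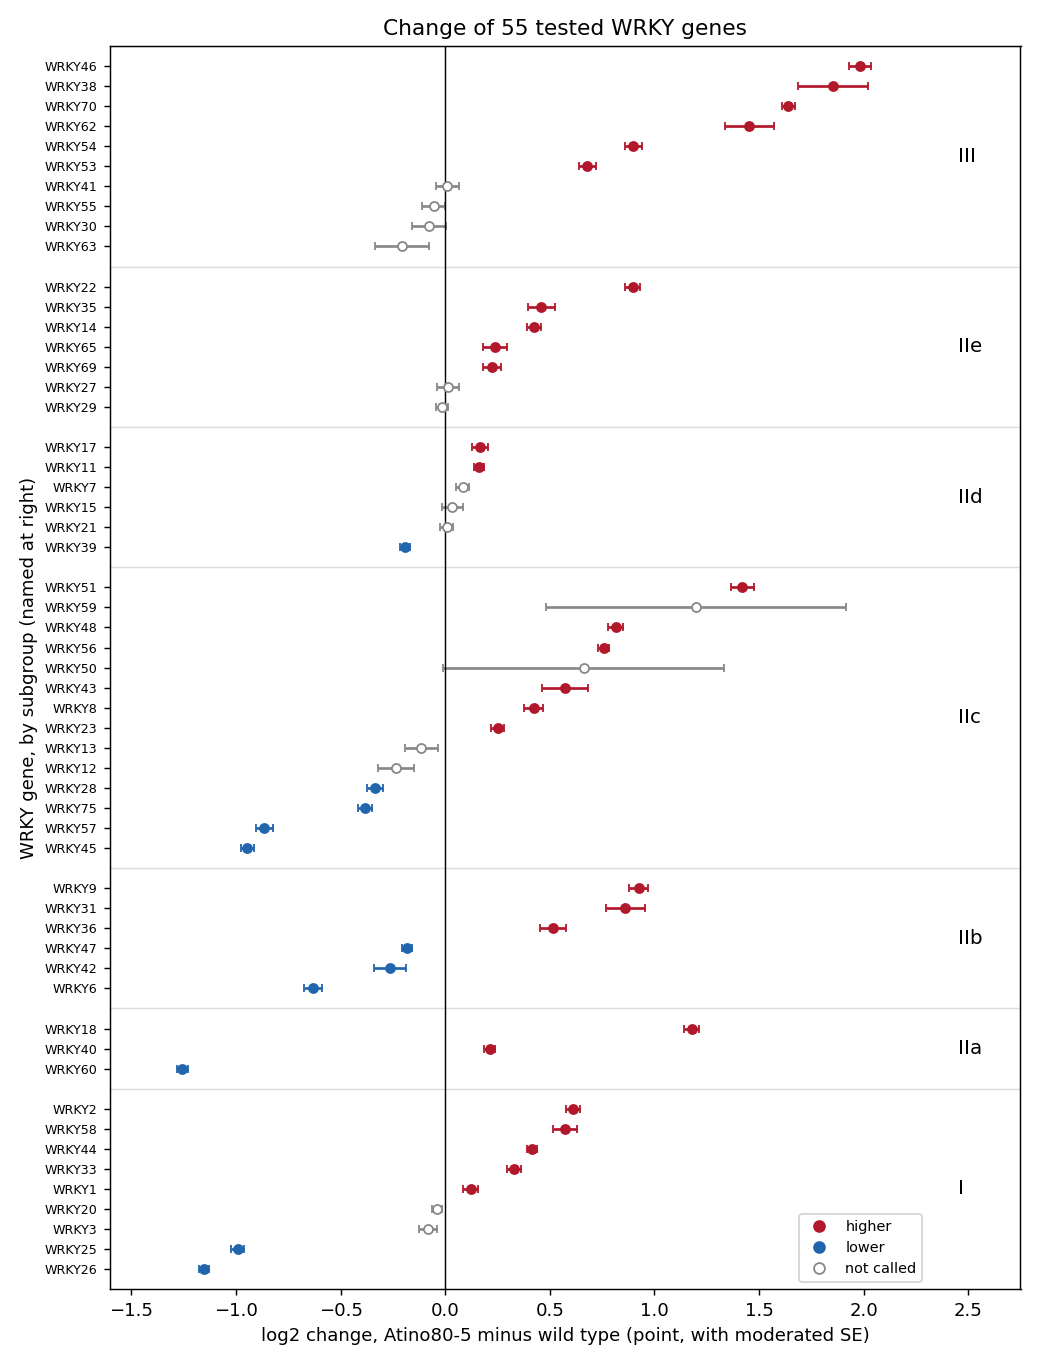
The log2 change of each of the 55 tested WRKY genes (x axis, Atino80-5 minus wild type, with the moderated SE from 2 and 3 arrays), grouped by subgroup along the y axis. Filled red and blue points are genes called higher and lower, open grey points are not called; the called genes of subgroups IIe and III all lie right of zero, while subgroups I, IIa, IIb, IIc and IId have called genes on both sides.

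The WRKY groups are described by their counts, and no difference between groups was tested. Over all genes 30.5% were called higher and 26.7% lower. In group I, 5 of 9 tested genes were higher and 2 lower, with a median log2 change of 0.12. In group II, 18 of 36 were higher and 9 lower, with a median of 0.19. In group III, 6 of 10 were higher and 0 lower, with a median of 0.79, or 0.33 with normexp background correction. None of group III passed an unadjusted p under 0.05 in limma in that direction either (0 genes). With quantile normalization, however, WRKY55 and WRKY63 were called lower (log2 changes -0.20 and -0.35), and likewise in the values the authors normalized. Those values gave nearly the same number of calls as quantile normalization over all genes, so they are not a separate check. Group III held 4 of the 6 WRKY genes that were at least 2-fold higher, and 2 of the 3 with normexp, where the dim WRKY38 and WRKY62 were under 2-fold. WRKY62 passed the probe filter only through mutant arrays. Among the 8 group III genes well above background on all arrays, 5 were higher, 3 of them at least 2-fold, with a median of 0.79.

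**Figure D2:**
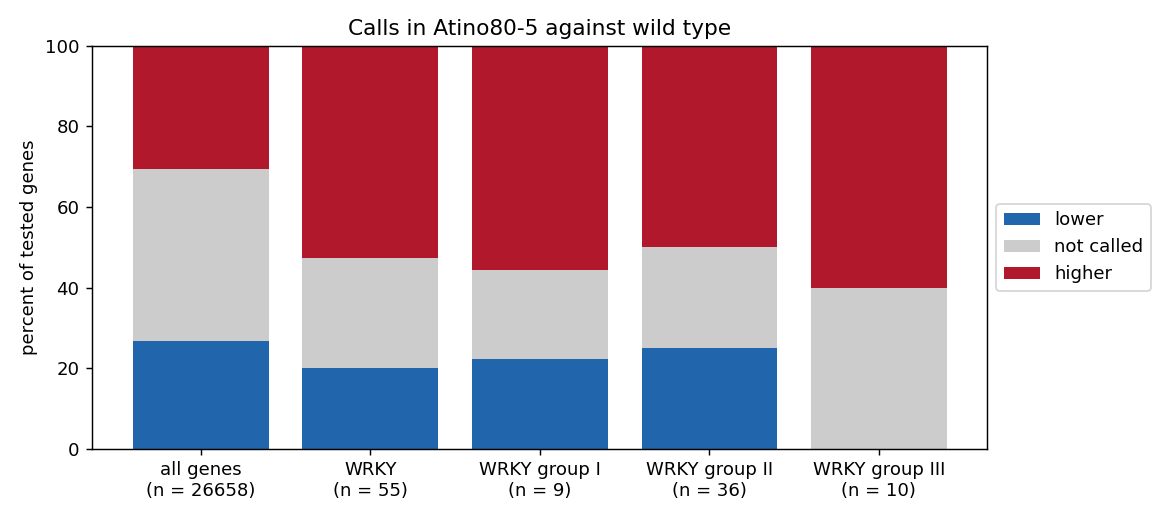
Percent of tested genes (y axis) called lower, not called and called higher, for all genes, all tested WRKY genes and WRKY groups I, II and III (x axis, with the number tested). The lower share is 26.7% over all genes, 22.2% in group I and 0 in group III.

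Group III showed the widest increases, together with genes that did not move. WRKY70 (AT3G56400), which acts where salicylic acid and jasmonate signalling meet, read 3057 and 3181 in wild type and 9658, 9702 and 9805 in Atino80-5. The mutant arrays lay close together, all about 3 times as bright as wild type. The increase was 1.64 ± 0.030, or 3.12-fold (adjusted p = 2.6e-05, limma).

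WRKY46 (AT2G46400), which acts with WRKY70 and WRKY53 in basal defence and in osmotic stress responses, read 762 and 796 in wild type and 3040.2, 3241 and 2961 in the mutant. It rose by 1.98 ± 0.051, or 3.95-fold (adjusted p = 4.4e-05), the widest increase among WRKY genes measured above background in both genotypes. The second probe of WRKY46 rose by 2.11. WRKY53 (AT4G23810), a promoter of leaf senescence, went from 1598 and 1719 to 2657, 2639 and 2665. Its rise of 0.68 ± 0.040 (1.60-fold, adjusted p = 0.00029) was 0.84 on its other probe.

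WRKY54 (AT2G40750), which with WRKY70 restrains salicylic acid accumulation and senescence, read 176 and 178 in wild type and 344, 329 and 318 in Atino80-5. It rose by 0.90 ± 0.041, or 1.87-fold (adjusted p = 0.00015). WRKY55 is the gene next to WRKY54 in the RefSeq table, the only members of the 59 that are direct neighbours there. WRKY55 (AT2G40740) read 34.3 and 37.6 in wild type and 34.4, 35.6 and 33.6 in the mutant, so its genotypes overlapped where those of its neighbour did not (log2 change -0.06, adjusted p = 0.42).

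WRKY38 and WRKY62, related genes whose proteins lower basal defence and bind a histone deacetylase, were dim in wild type. WRKY38 (AT5G22570) read 34.4 and 24.4 in wild type and 98.4, 101 and 115 in the mutant, a rise of 1.85 ± 0.17 (adjusted p = 0.001). Its other probe was not well above background on either wild type array but was on all 3 mutant arrays, with a floored ratio of 4.81-fold (limma adjusted p over probes = 0.00014, without the floor). WRKY62 was not well above background in wild type and was on 2 of 3 mutant arrays, at 17.98, 17.76 and 15.25. Its floored ratio was 2.14-fold (limma adjusted p = 0.00073, without the floor). The floored ratio sets the mutant mean against the higher of the wild type signal and the lowest signal called above background on that array. It is not a lower limit of the change. WRKY50 read 11.9 and 13.3 in wild type, over the floors of 5.78 and 10.9, without being well above background. Mutant array 3 of WRKY62 lay under its own floor of 21.4. After normexp background correction WRKY38 rose by 0.86 and WRKY62 by 0.11, less than its floored ratio, and both were still called.

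Of the group III genes that were not called, WRKY30 read 164 and 165 in wild type and 142 to 169 in the mutant, and WRKY41 172 and 179 against 169 to 187. WRKY63 (ABO3), which acts in abscisic acid and drought responses, read 19.5 and 19.4 against 14.4 to 19.3, with a log2 change of -0.21 ± 0.13. The genotypes overlapped for WRKY30 and WRKY41; for WRKY63 the mutant arrays were lower, by less than the test required (adjusted p = 0.23).

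**Figure D3:**
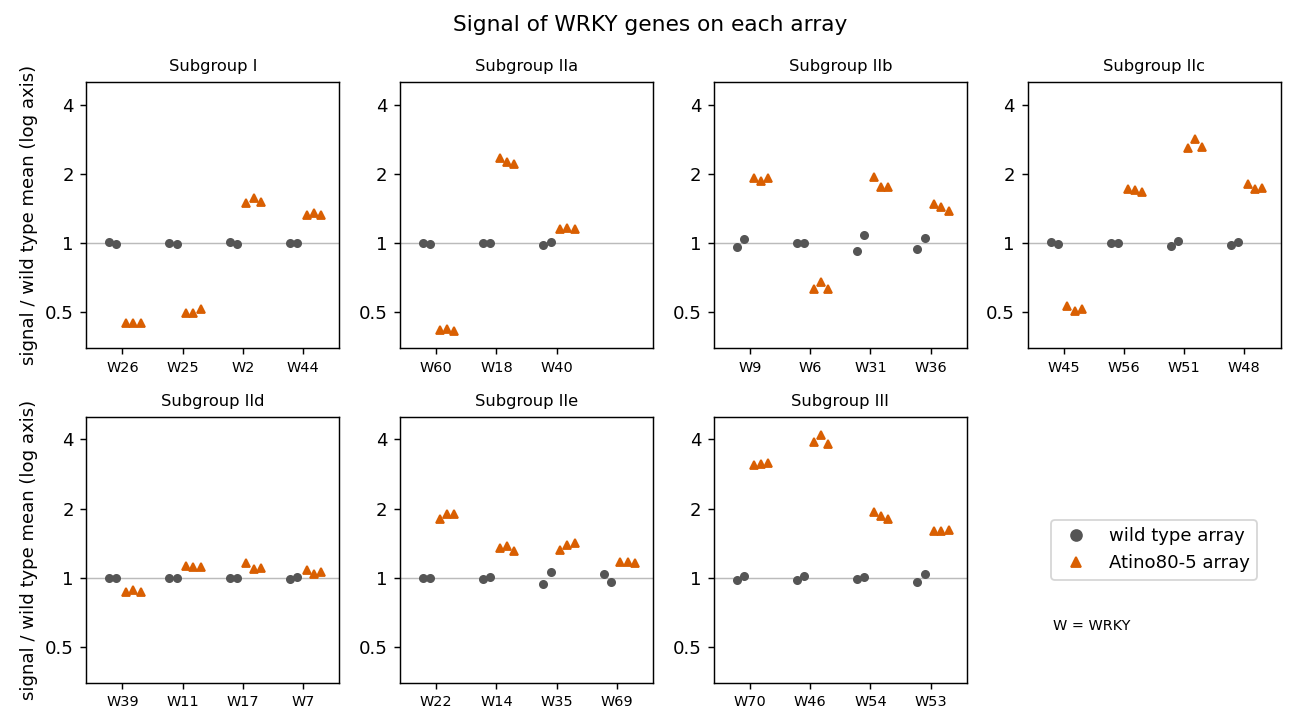
Scaled signal of each array divided by the wild type mean of that gene (y axis, log scale), for the 4 WRKY genes with the smallest p in each subgroup (3 in IIa), named along the x axis. Grey circles are the 2 wild type arrays and orange triangles the 3 Atino80-5 arrays. The triangles lie apart from the circles for all 27 genes, including WRKY7, which was not called. The genes were picked by p, which favours such separation. Arrays of the genotypes were fully separate for 45 of the 55 tested WRKY genes and for 74.7% of all genes.

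Group I changed in both directions. WRKY26 and WRKY25, which act with WRKY33 in tolerance to heat, were the members that fell. WRKY26 (AT5G07100) read 8539 and 8381 in wild type and 3808, 3793 and 3822 in Atino80-5, a fall of 1.15 ± 0.025 on the log2 scale, or 2.22-fold (adjusted p = 3.3e-05). WRKY25 (AT2G30250) read 7397 and 7311 against 3651, 3646 and 3800.2, and fell by 0.99 ± 0.032, or 1.99-fold (adjusted p = 6.6e-05). For both genes every mutant array was far below both wild type arrays.

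WRKY33 (AT2G38470), needed for camalexin synthesis and resistance to necrotrophic fungi, was higher where its relatives were lower. It read 15693 and 15843 in wild type and 19632, 19415 and 20349.9 in the mutant, a rise of 0.33 ± 0.032 (1.26-fold, adjusted p = 0.0013). WRKY2 (AT5G56270), which acts in germination and in the polarity of the zygote, rose from 3503 and 3412 to 5189, 5412 and 5246, by 0.61 ± 0.033 (adjusted p = 0.00022). WRKY44 (TTG2), a regulator of trichomes and seed coat, read 290.4 and 289.7 in wild type and 384, 391 and 385 in the mutant, a rise of 0.41 ± 0.025 (adjusted p = 0.00033).

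The other group I genes moved little or were dim. WRKY58 rose by 0.57 at signals of 75.2 to 122, and by 0.26 with normexp background correction. WRKY1 (ZAP1) rose by 0.12 ± 0.036 (adjusted p = 0.041), a call that was lost without wild type array 1 and without Atino80-5 array 1, 2 or 3 (log2 changes 0.08, 0.13, 0.11 and 0.12). WRKY3 and WRKY20 were not called, with log2 changes of -0.08 and -0.04. WRKY3 was called lower with normexp background correction (-0.11, adjusted p = 0.044) and WRKY20 with median scaling (-0.10, adjusted p = 0.034).

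Subgroup IIa consists of 3 genes whose proteins form complexes with each other and modulate defence and abscisic acid responses. WRKY18 (AT4G31800) read 4737 and 4723 in wild type and 11043, 10669 and 10402 in Atino80-5. It rose by 1.18 ± 0.035, or 2.26-fold (adjusted p = 5.8e-05), and its other probe rose by 1.01. WRKY60 (AT2G25000) moved the other way, with 10414 and 10290.1 in wild type and 4342, 4381 and 4284 in the mutant. It fell by 1.26 ± 0.026, or 2.39-fold (adjusted p = 3.0e-05).

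WRKY40 (AT1G80840), the third gene of the subgroup, changed least. It read 14047 and 14444 in wild type and 16489.5, 16654 and 16390.3 in the mutant, with no overlap. The rise was 0.21 ± 0.028 (1.16-fold, adjusted p = 0.0031), and 0.23 on its other probe. The ratio of WRKY18 to WRKY60 on the same array, which does not depend on the scaling, was 5.40-fold higher in the mutant.

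In subgroup IIb all 6 tested genes were called, 3 in each direction, where 57.2% of all genes were called. WRKY6 (AT1G62300), which acts in senescence and defence and with WRKY42 represses the phosphate exporter gene PHO1, read 5763 and 5746 in wild type and 3629, 3892 and 3634 in the mutant, a fall of 0.63 ± 0.042 (adjusted p = 0.00042). WRKY42 fell by 0.26 ± 0.078 at signals of 90.2 to 123 (adjusted p = 0.042). Its call was lost without wild type array 2 or without any 1 mutant array (log2 changes from -0.29 to -0.17). WRKY47 fell by 0.18.

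The increases in IIb were those of WRKY9, WRKY31 and WRKY36, a repressor of the light signalling gene HY5. WRKY9 (AT1G68150) read 475 and 514 in wild type and 946, 924 and 947 in the mutant, a rise of 0.92 ± 0.044 (1.90-fold, adjusted p = 0.00016). WRKY31 (AT4G22070) went from 65.8 and 77.7 to 139, 126 and 125, a rise of 0.86 ± 0.093, which was 0.47 with normexp background correction. WRKY36 (AT1G69810) read 241 and 269 against 375, 364 and 352 and rose by 0.52 ± 0.061 (adjusted p = 0.0024).

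Subgroup IIc, the largest, had 6 genes higher, 4 lower and 4 not called (71.4% called, against 57.2% of all genes). The phosphate starvation regulators WRKY45 and WRKY75 were among those that fell. WRKY45 (AT3G01970), an activator of the phosphate transporter gene PHT1;1, read 10813 and 10615 in wild type and 5698, 5434 and 5567 in the mutant. It fell by 0.94 ± 0.033, or 1.93-fold (adjusted p = 7.9e-05). WRKY75 (AT5G13080) read 957 and 949 against 747, 734 and 711, and fell by 0.38 on one probe and 0.39 on the other.

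WRKY57 (AT1G69310), which acts in drought tolerance and delays jasmonate-induced senescence, read 1224 and 1179 in wild type and 675, 668 and 638 in Atino80-5, a fall of 0.86 ± 0.039 (0.91 on its other probe). WRKY28, an activator of salicylic acid synthesis, fell by 0.34 ± 0.038. WRKY48 (AT5G49520), a repressor of basal defence, moved up from 384 and 397 to 709, 674 and 679, by 0.82 ± 0.037 (1.76-fold, adjusted p = 0.00014). WRKY56 (AT1G64000) rose by 0.76 ± 0.027 from 142 on both wild type arrays to 243, 241 and 237.

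WRKY51 (AT5G64810), which with WRKY50 links low oleic acid to the repression of jasmonate signalling, read 28.2 and 29.5 in wild type and 74.4, 81.9 and 75.6 in the mutant. The increase of 1.42 ± 0.055, or 2.68-fold (adjusted p = 0.0001), was 0.60 with normexp background correction. WRKY50 was not called. It was not well above background in wild type, and 1 mutant array (47.7) stood above the others (11.5 and 14.3). Its other probe, above background on 1 of the 5 arrays and so not kept, read 13.5 and 13.2 in wild type and 17.2, 24.1 and 22.8 in the mutant. With no filter on dim probes that probe stood for WRKY50, which was then called higher (0.66, adjusted p = 0.049). WRKY59 was likewise dim and not called.

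WRKY8, WRKY23 and WRKY43 rose by 0.42, 0.25 and 0.57. WRKY23 is induced by auxin and acts in root growth. WRKY43 read 35.04 and 33.78 in wild type and 45.5 to 58.1 in the mutant, and its call was lost without wild type array 1 (log2 change 0.60) or 2 (0.55). With normexp background correction WRKY8 and WRKY43 rose by 0.27 and 0.14. WRKY12 and WRKY13, which act oppositely on flowering time, had log2 changes of -0.23 and -0.11 and were not called. WRKY12 was called with normexp, quantile or median scaling, trended eBayes and the authors' normalized values, and WRKY13 without Atino80-5 array 2 (log2 change -0.19).

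Subgroup IId, whose proteins bind calmodulin, had the smallest median size of change of the 7 subgroups (0.12), with log2 changes from -0.19 to 0.17. WRKY11 and WRKY17, which restrain basal resistance to bacteria, rose by 0.16 ± 0.025 (12029 and 12068 against 13580.0, 13384 and 13474) and 0.17 ± 0.037 (1611 and 1602 against 1871, 1765 and 1773). The call of WRKY11 was lost with normexp background correction (log2 change 0.09), and that of WRKY17 without either wild type array (0.17 and 0.16). WRKY39 (AT3G04670) read 5078 and 5075 against 4401, 4502 and 4432, a fall of 0.19 ± 0.026, while its second probe had a log2 change of -0.03 that was not called. WRKY7 read 6659 and 6798 against 7296, 6990.4 and 7111, without overlap but not called (log2 change 0.08, adjusted p = 0.079). Trended eBayes called it higher (adjusted p = 0.04). WRKY15 and WRKY21 had log2 changes of 0.03 and 0.01 and overlapping arrays.

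Subgroup IIe had 5 genes higher, 0 lower and 2 not called (71.4% called, against 57.2% of all genes). At an unadjusted p under 0.05, limma also had 0 lower. WRKY22 (AT4G01250), which acts downstream of the MAP kinase cascade triggered by bacterial flagellin, read 4264 and 4252 in wild type and 7656, 8076 and 8050.4 in the mutant. It rose by 0.90 ± 0.035, or 1.86-fold (adjusted p = 0.00011). WRKY29 (AT4G23550), placed with WRKY22 in that pathway, read 3514 and 3491 against 3507, 3502 and 3394, so its genotypes overlapped.

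The other increases of IIe were smaller. WRKY14 (AT1G30650) read 587 and 597 against 796, 816 and 775 and rose by 0.43 ± 0.034. WRKY35 (AT2G34830) rose by 0.46 ± 0.065, from 236 and 265 to 330.1, 346 and 355. WRKY69 rose by 0.22 ± 0.042 (1426 and 1319 against 1606, 1605 and 1594), and WRKY65 by 0.24. The call of WRKY65 was lost without wild type array 1 or 2 (log2 changes 0.20 and 0.28). WRKY27 had a log2 change of 0.01.

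Related genes within a subgroup did not always move together. Of 26 pairs set side by side, 9 were both higher, 3 both lower, 7 called in opposite directions and 3 neither called. In 4 pairs a single gene was called. Among all tested WRKY genes 52.7% were higher and 20.0% lower. Unrelated pairs were not compared, and some genes stand in more than 1 pair, so the counts show nothing particular to relatives. The opposite pairs were WRKY25 and WRKY33, WRKY18 and WRKY60, WRKY40 and WRKY60, WRKY6 and WRKY31, WRKY31 and WRKY42, WRKY8 and WRKY28, and WRKY48 and WRKY57. The exact two-sided permutation test used for the ratio of the members on the same array cannot go below p = 0.2 with 2 and 3 arrays (0.31 adjusted over 26 pairs), so it could make no call. The widest shift of a ratio was that of WRKY18 to WRKY60. The ratios of WRKY11 to WRKY17, WRKY65 to WRKY69 and WRKY14 to WRKY35 changed by at most 1.02-fold and overlapped between genotypes.

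**Figure D4:**
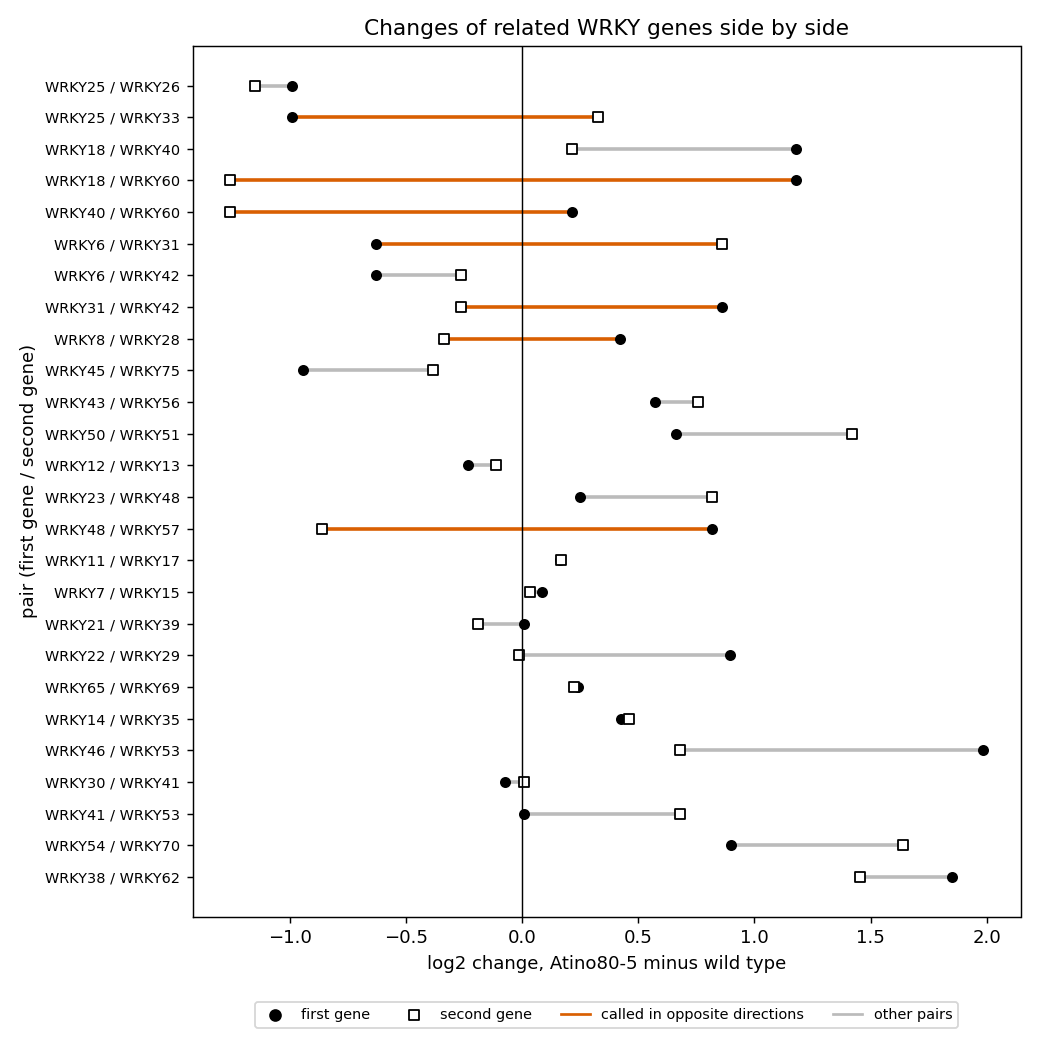
The log2 changes (x axis) of 26 pairs of related WRKY genes (y axis), with a filled circle for the gene named first and an open square for the other. Orange lines join the 7 pairs called in opposite directions, the longest between WRKY18 at 1.18 and WRKY60 at -1.26.

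Where a gene had more than 1 probe, the probes could be compared. A further kept probe was present for 17 genes, with 18 such probes in all. Over single probes, 36 of the 73 kept for WRKY genes were called higher and 16 lower, against 55.6% of all probes called in either direction. Of the further probes, 16 had the sign of the probe that represents the gene, and 12 shared its call and direction. The exceptions in sign were both further probes of WRKY15, which had changes near 0 and no call. The further probes of WRKY17 and WRKY39 were not called where the first were. The median difference between probes of a gene was 0.06, and the largest, 1.36, was that of WRKY38, where the further probe had no wild type signal above background.

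**Figure D5:**
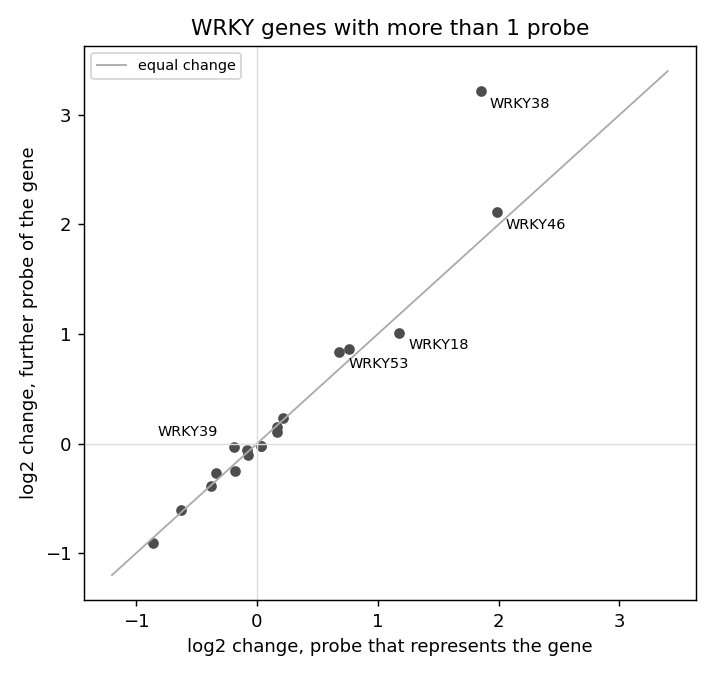
The log2 change of each further probe (y axis) against that of the probe that represents the gene (x axis), for 17 WRKY genes; the line marks equal change. The points lie near the line except WRKY38, at 3.21 against 1.85.

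Genes that act with WRKY factors were taken from 3 lists. Of 9 MAP kinase cascade genes, 3 were higher and 2 lower, with a median log2 change of 0.10. The share called, 55.6%, was near the 57.2% of all genes. MPK3, a kinase that phosphorylates WRKY33, read 14840.2 and 14652 in wild type and 28050.5, 28246 and 28487 in the mutant, a rise of 0.94 ± 0.025 (1.92-fold, adjusted p = 4.7e-05). MKK9 and MKK4, kinases upstream of it, rose by 0.28 and 0.50. MPK6, which shares its role with MPK3, fell by 0.16.

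Of 8 tested genes for VQ motif proteins, which bind WRKY domains, 4 were higher and 0 lower (limma also had 0 at an unadjusted p under 0.05), with a median of 0.14. Over all genes 30.5% were higher and 26.7% lower, and 57.2% were called, against 4 of 8 here. VQ8 (PDE337) read 82.1 and 76.1 against 289, 319 and 309 and rose by 1.95 ± 0.059. SIB2, which binds and activates WRKY33, rose by 0.84 ± 0.035, and VQ9 rose by 0.41. SIB1, the relative of SIB2, overlapped between the genotypes (log2 change -0.02).

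Of 14 tested genes reported as targets of WRKY factors, 9 were higher and 4 lower, with a median of 0.15. The share called was 92.9%, and 57.2% over all genes. The list was chosen with earlier results of these data known, so its share describes the chosen genes only and was not tested. ACS6, an ethylene synthesis gene, read 12818 and 12674 against 33018, 30865 and 30509 and rose by 1.30 ± 0.044 (2.47-fold). ALMT1, the malate transporter gene repressed by WRKY46, rose by 1.07 ± 0.047. PHO1, repressed by WRKY6 and WRKY42, rose by 0.65 ± 0.033. FRK1, a receptor kinase gene that WRKY6 activates, fell by 0.50, and ACS2, a target of WRKY33, fell by 0.53. PAD3, the camalexin gene bound by WRKY33, read 268 and 303 against 264, 277 and 237 and was not called. CYP71A13 and ICS1, also in this list, were called higher, by 0.28 and 0.14. The phosphate transporter gene that WRKY45 activates was called higher by 0.27, while WRKY45 fell. Which factor acts on which of these genes in the seedlings was not measured.

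Other genes moved with the WRKY genes in the same arrays. Their lists were chosen with earlier results of these data known. Over all genes 30.5% were called higher and 26.7% lower. All 8 tested early touch and wound genes rose, by 0.95 to 3.05 on the log2 scale (median 1.20), with ERF109 from 658 and 675 to 5509.9, 5519 and 5518. The other genes of that list with the smallest p, ERF13 and ZAT12, rose by 1.79 and 1.61. Of 11 root markers, 8 rose and 2 fell (median 0.97), among them PLT2 and EXPA18, which rose by 1.09 and 1.25, and WOX5, which fell by 1.499. All 5 seed markers were called higher: CRU1 rose by 1.18 and EM1 by 1.49, and CRU3 was above background on 1 wild type array. OLEO1 and SESA1 were not well above background in wild type and passed the probe filter only through mutant arrays. Their floored ratios, as defined for WRKY62, were 2.94-fold and 3.30-fold. Leaf mesophyll markers had a median of -0.15 (1 higher, 4 lower of 8). Senescence markers were split, with SAG13 and SAG14 higher, ORE1 and SGR1 lower and 3 not called. Of 5 pollen markers 2 could be tested and 1 was higher. The part of these genes or tissues in the WRKY changes was not tested, and in whole seedlings fewer cells of a type and less RNA per cell cannot be told apart.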

How the data were processed

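Total RNA was labelled with Cy3 and hybridised to 1-colour Agilent arrays, per the labels' protocols. The deposited scanner files hold spot intensities that were background-subtracted and detrended within each array, with no scaling between arrays, per the file headers. The headers name Feature Extraction 10.7.3.1 and the submitters' processing notes 9.1. The authors' value table holds log2 values, which correlated with the log2 processed signal at 0.9994 or more and share a 75th percentile of 12.15, so genes were not centred; the normalization method is not stated, and single-array values carry no direction. Its column medians were 9.6208 and 9.6213 (wild type) and 9.6216, 9.6213 and 9.6213 (Atino80-5).

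The 1417 control spots and 7 to 14 outlier spots per array were left out; 0 probe spots were saturated. Log2 signals had each array's 75th percentile subtracted. Probes well above background on at least 2 of 5 arrays were kept (35204 of 43603). The arrays of either genotype alone could meet this, and the mutant had more of them. The kept probe with the highest mean represents a gene. The alternatives held that probe, except those on the probe filter and the mean of probes. Accessions matched 34285 probes to a locus and left 9318 unmatched. The array design names another build, so no coordinates are given. Probe sequences were not used here, so close relatives could share signal. Tests used limma 3.58.1 in R 4.3.3, with 3 residual degrees of freedom (4.55 with the prior), checked on simulated data. Alternatives covered background correction (normexp, on the median signal since the files hold no mean signal), scaling, probe filter, mean of probes, eBayes options, array weights, slide and replicate blocks, the authors' values and leaving out each array. The number of arrays limits the precision.

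The members, lists and pairs were chosen with earlier results of these data known. Genes described array by array are, in each subgroup, the 4 with the smallest p that were above background on all arrays of the brighter genotype, and in each list the 3 with the smallest p; any other was named after its values were seen.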

Additional observations from a re-analysis of the deposited data

How the results depend on the processing

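Of the 40 called WRKY genes, 31 (23 higher, 8 lower) kept their call and direction in all 17 alternatives, or 16 for WRKY62, which had no probe above background on all arrays. The 17 are 15 distinct fits, since the slide as a block, the shared slide alone and leaving out Atino80-5 array 3 use the same 4 arrays. The replicate block also takes its changes from those 4 arrays, with another SE. Atino80-5 array 3 has no wild type array of its number and drops out there. No called WRKY gene changed sign. With normexp background correction, run on the median signal because the files hold no mean signal, 8 called WRKY genes changed by less, by over 1.5 times (WRKY58, WRKY31, WRKY8, WRKY43, WRKY51, WRKY11, WRKY38 and WRKY62), and the call of WRKY11 was lost. The group II median was then 0.12 in place of 0.19, and with median scaling the group I median was 0.06 in place of 0.12. Requiring at least 2-fold changes left 1215 genes higher and 701 lower, and 6 and 2 WRKY genes. Group III had 2 genes lower with quantile normalization and 2 in the authors' value table, in place of 0. These 2 alternatives gave nearly the same counts of calls over all genes and are not separate checks. The genotypes share replicate numbers, and whether same-numbered arrays were paired cannot be settled here. Deviations of same-numbered arrays correlated at 0.04 and 0.01. With 2 wild type arrays the deviations mirror each other, so these values cannot decide it. With the replicate number as a block, 24 WRKY genes were higher and 10 lower, where 42.0% of all genes were called in place of 57.2%. The count of genes called higher in the 3 lists of partners and targets was then 9 in place of 16. Leaving out each array in turn gave 25 to 28 WRKY genes higher and 10 or 11 lower, and 11 to 15 higher in those lists. Over all genes, 49.0% to 54.5% were called when a mutant array was left out. Fewer were called without a wild type array, which leaves a single one. On the slide that holds both genotypes 28 WRKY genes were higher and 10 lower, where 52.2% of all genes were called. No scaling moved the median of all genes by over 0.1.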
